A study of Mus musculus with 12 samples.

Results

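Bone morphogenetic protein (BMP) signalling was described through 10 genes, taken by name, with earlier results of these data known: the ligand genes Bmp4 and Bmp7, the type I receptor genes Bmpr1a and Bmpr1b, the inhibitory SMAD genes Smad6 and Smad7, and the 4 ID genes Id1, Id2, Id3 and Id4. All 10 were found by gene symbol among the 18911 genes of the count table, and all 10 passed the filter on low counts that left 17076 genes for testing. RNA was measured in 12 poly(A) libraries of mouse neural progenitor cells (mNPCs) grown from the hippocampus of newborn C57BL/6J pups, with 3 libraries for each of 4 genotypes. Kmt2a+/+ cells were wild type, Kmt2a+/LSL cells carried a lox-STOP-lox cassette in intron 1 of 1 allele of Kmt2a, which encodes a histone H3 lysine methyltransferase, nes-cre+/- cells carried only a Cre transgene driven by the nestin promoter, and nes-cre+/-Kmt2a+/LSL cells carried both, so that the cassette is removed in neural cells. The cassette mice came from a single established stock, and the labels number the libraries as replicates without saying whether these are separate pups, so p-values measure the spread between these samples, which may be technical. The stated culture additions are growth factors and supplements with no BMP ligand or BMP antagonist among them.

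BMP ligands bind a complex of type I and type II receptor kinases, which phosphorylate SMAD proteins that enter the nucleus and bind DNA together with SMAD4. The ID genes are among the best known direct targets of this route, and the inhibitory SMADs are induced by it and act back on the receptors. ID proteins have a helix-loop-helix domain without a DNA-binding region, so they hold E proteins and proneural factors in inactive pairs, and in the hippocampus BMP signalling is known for holding neural stem cells in quiescence and for favouring glial over neuronal fates.

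Library totals ranged from 18280008 to 28596919 counts, so that 3 counts, the upper limit that a count of 0 allows, were worth 0.103 to 0.178 CPM (counts scaled to library size). Levels of Kmt2a followed the labels, with 166, 166 and 167 CPM in the Kmt2a+/LSL libraries, 281 to 300.4 CPM in Kmt2a+/+, 283 to 310.1 CPM in nes-cre+/- and 259 to 284 CPM in nes-cre+/-Kmt2a+/LSL. The 8 neural progenitor markers summed to between 5416 and 12739.9 CPM per library, and 5 microglial markers summed to at most 1.72 CPM, with Csf1r, Aif1, P2ry12 and Tmem119 each at 0 in at least 1 library. The 4 endothelial markers summed to at most 5.10 CPM, while the astrocyte list summed to between 949 and 2930 CPM. One library stood apart: replicate 1 of Kmt2a+/+ had a median correlation of 0.918 with the other 11 libraries, where each of those had a median of 0.969 to 0.982 with all libraries but itself, and 12.7% of its counts were mitochondrial against 3.96% to 10.3% elsewhere. Differences of the 10 genes that involve the Kmt2a+/+ group are therefore also given without that library, and its part in a result beyond those values was not tested.

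Levels of different genes were compared only per transcript length, as RPKM, the count divided by library size and by transcript length. On this scale the 10 genes spanned a wide range, with Id3 at the top and Bmp4 at the bottom. Median RPKM over the 12 libraries was 81.0 for Id3, 35.8 for Bmpr1a, 29.9 for Bmp7, 20.8 for Id2, 15.2 for Id1, 11.8 for Id4 and 11.2 for Bmpr1b, then 0.592 for Smad7, 0.243 for Smad6 and 0.0859 for Bmp4. The cells thus held transcripts of 1 of the 2 ligands, both receptors and all 4 ID genes at more than 10 RPKM in the median library, and the 2 inhibitory SMADs and Bmp4 at less than 1 RPKM. The only neighbours in this order whose ranges over the 12 libraries did not overlap were Bmpr1b and Smad7, with Bmpr1b 7.86 to 92.0 times as high in each of 12 libraries. Id3 exceeded Bmpr1a in 11 of 12 libraries, by a median ratio of 2.35, and Id2 exceeded Id1 in 11 of 12. Bmpr1a exceeded Bmp7 in only 7 of 12 libraries, and Id4 exceeded Bmpr1b in 7 of 12, so these neighbours cannot be placed in a fixed order.

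**Figure D1:**
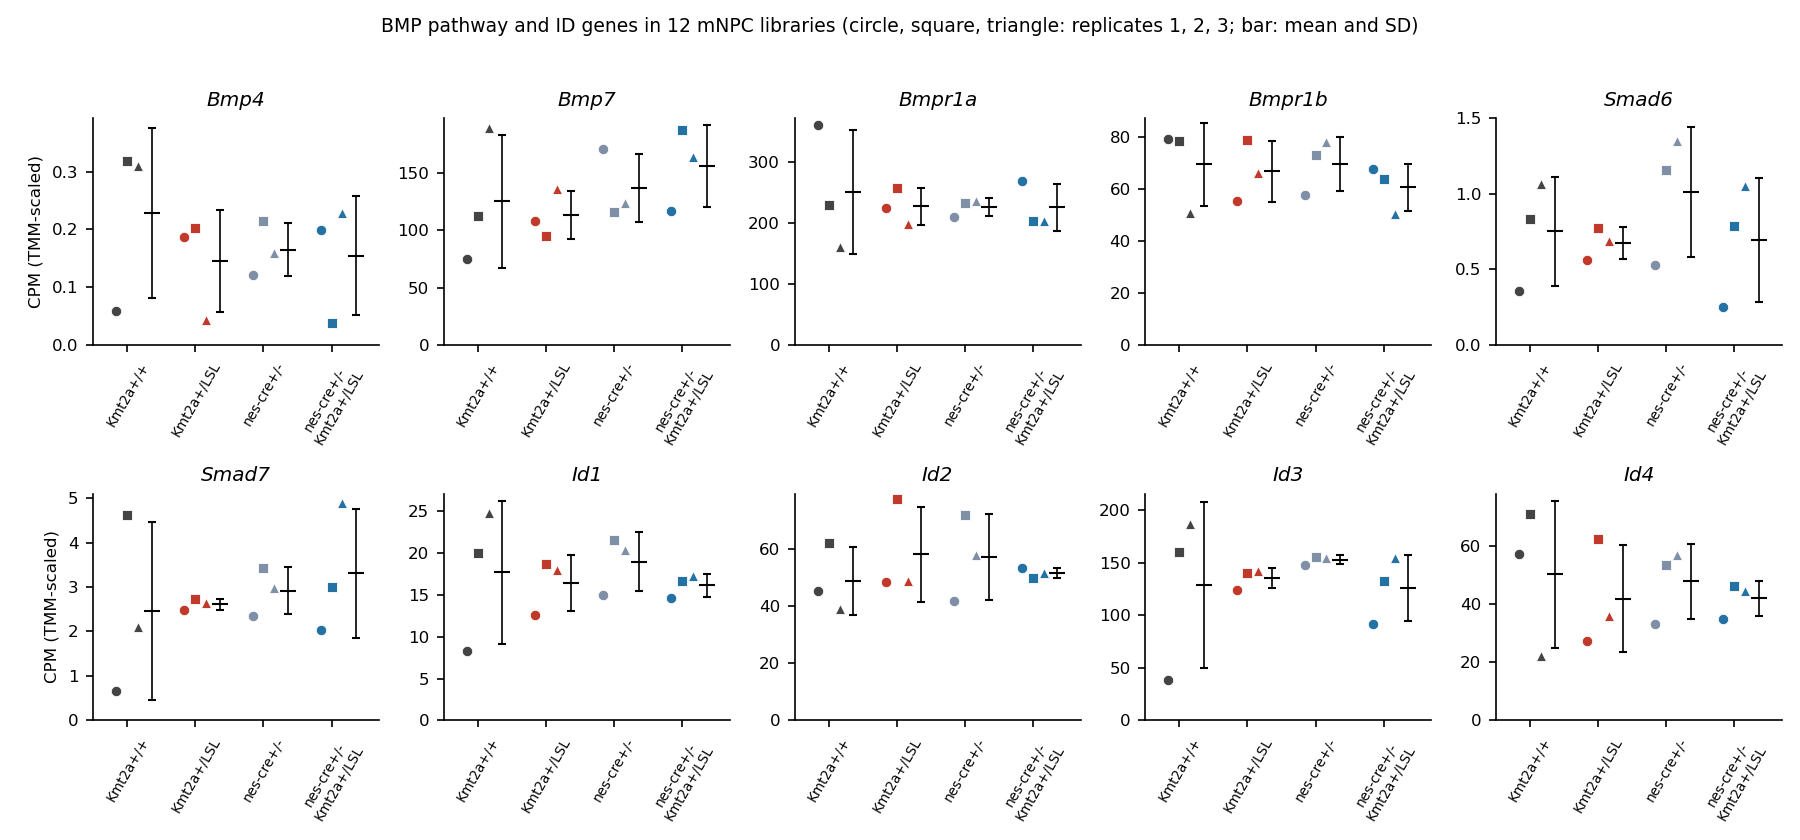
Level of each of the 10 genes in each library, in TMM-scaled CPM on axes that start at 0, by genotype (circle, square and triangle for replicates 1, 2 and 3; the bar beside them is the mean with SD, n = 3). The genotypes overlap for every gene in each of the 4 pairwise comparisons made, and replicate 1 of Kmt2a+/+ is the lowest point for Id1, Id3, Bmp7 and Smad7 and the highest for Bmpr1a and Bmpr1b.

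Of the ligand genes, Bmp7 (ENSMUSG00000008999, chr2:172868012-172940321 of GRCm38, minus strand) encodes a BMP with known roles in forebrain and kidney development. Bmp7 measured 74.8, 113 and 189 CPM in Kmt2a+/+, 108, 95.4 and 136 in Kmt2a+/LSL, 170.5, 116 and 124 in nes-cre+/- and 117, 187 and 164 in nes-cre+/-Kmt2a+/LSL. Kmt2a+/+ held both the lowest and the highest of the 12 values, and the other 3 genotypes lay between them. Bmp4 (ENSMUSG00000021835, chr14:46383520-46390669, minus strand), which encodes a ligand that patterns the dorsal telencephalon, was almost absent. Its counts were 1, 8 and 9 in the Kmt2a+/+ libraries, 5, 5 and 1 in Kmt2a+/LSL, 3, 5 and 4 in nes-cre+/- and 4, 1 and 5 in nes-cre+/-Kmt2a+/LSL, 51 counts in all. In 4 libraries it had 3 counts or fewer, so a difference in Bmp4 between genotypes could be measured only very imprecisely at this depth. For Kmt2a+/LSL against Kmt2a+/+ its 95% interval ran from -2.47 to 1.12 on the log2 scale.

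The receptor genes were both well measured. Bmpr1a (ENSMUSG00000021796, chr14:34410734-34503341, minus strand) encodes the type I receptor ALK3 and gathered 65405 counts, more than any other of the 10 genes. Bmpr1a measured 361, 230.4 and 161 CPM in Kmt2a+/+, 225, 258 and 199 in Kmt2a+/LSL, 209.9, 234 and 236 in nes-cre+/- and 269.8, 204 and 203 in nes-cre+/-Kmt2a+/LSL. As with Bmp7, the extremes at both ends came from Kmt2a+/+, but replicate 1 was here the highest library and replicate 3 the lowest. Bmpr1b (ENSMUSG00000052430, chr3:141837136-142169425, minus strand), which encodes the related receptor ALK6, measured 79.2, 78.3 and 51.0 CPM in Kmt2a+/+, 55.4, 79.0 and 66.1 in Kmt2a+/LSL, 57.8, 73.1 and 78.0 in nes-cre+/- and 67.7, 63.8 and 50.6 in nes-cre+/-Kmt2a+/LSL. Bmpr1b was the steadiest of the 10, with a highest library 1.57 times the lowest.

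The inhibitory SMAD genes were low. Smad7 (ENSMUSG00000025880, on chromosome 18), whose product blocks both BMP and TGF-beta receptors, had counts of 11, 116 and 61 in the Kmt2a+/+ libraries, 66, 67 and 61 in Kmt2a+/LSL, 58, 80 and 75 in nes-cre+/- and 41, 80 and 107 in nes-cre+/-Kmt2a+/LSL. Replicates 1 and 2 of Kmt2a+/+, at 0.653 and 4.61 CPM, were further apart than the means of any 2 genotypes, which ran from 2.45 to 3.30 CPM. Smad6 (ENSMUSG00000036867, chr9:63953076-64022059, minus strand), whose product acts mainly on BMP receptors and SMAD1, had counts of 6, 21 and 31 in the Kmt2a+/+ libraries, 15, 19 and 16 in Kmt2a+/LSL, 13, 27 and 34 in nes-cre+/- and 5, 21 and 23 in nes-cre+/-Kmt2a+/LSL. Replicate 1 was the lowest of its genotype for Smad6 in all 4 genotypes.

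The ID genes differed more within the family than between genotypes. Id3 (ENSMUSG00000007872, chr4:136143497-136145755, plus strand) measured 38.7, 159.9 and 187 CPM in Kmt2a+/+, 124, 140.0 and 142 in Kmt2a+/LSL, 148, 156 and 155 in nes-cre+/- and 91.8, 133 and 154 in nes-cre+/-Kmt2a+/LSL. Without replicate 1 of Kmt2a+/+ the highest Id3 library was 2.04 times the lowest, against 4.83 times with it. The Id3 libraries of Kmt2a+/LSL all lay below those of nes-cre+/-, a pair of genotypes that differs in both the cassette and the transgene and was not compared by a test. The share of all genes free of overlap was not counted for this pair, so the separation of Id3 has no background here. In the 4 pairs that were compared, that share was 4.05% to 7.1%. Id1 (ENSMUSG00000042745, chr2:152736251-152737410, plus strand), which lies in a short gene of 1160 exonic bases, measured 8.25, 20.0 and 24.8 CPM in Kmt2a+/+, 12.6, 18.6 and 18.0 in Kmt2a+/LSL, 15.0, 21.6 and 20.4 in nes-cre+/- and 14.6, 16.7 and 17.2 in nes-cre+/-Kmt2a+/LSL. For Id1, as for Id3, Smad6 and Smad7, replicate 1 was the lowest library of each genotype in CPM.

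Id2 (ENSMUSG00000020644, chr12:25093799-25097140, minus strand), the ID gene best known from lymphoid cells and neural precursors, measured 45.3, 61.8 and 38.8 CPM in Kmt2a+/+, 48.3, 77.3 and 48.8 in Kmt2a+/LSL, 41.9, 71.9 and 57.9 in nes-cre+/- and 53.4, 49.8 and 51.5 in nes-cre+/-Kmt2a+/LSL. Replicate 2 was the highest Id2 library in 3 of the genotypes, and the nes-cre+/-Kmt2a+/LSL libraries stayed within the range of the others. Id4 (ENSMUSG00000021379, chr13:48261228-48266026, plus strand), which is known for its part in the quiescence of hippocampal stem cells, measured 57.3, 71.1 and 22.3 CPM in Kmt2a+/+, 27.2, 62.5 and 35.8 in Kmt2a+/LSL, 33.1, 53.6 and 56.8 in nes-cre+/- and 35.0, 46.3 and 44.6 in nes-cre+/-Kmt2a+/LSL. Id4 spread 3.19 times from its lowest to its highest library with or without replicate 1 of Kmt2a+/+. In bulk libraries such as these, fewer cells that express a gene and less RNA per cell cannot be told apart.

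Among the summed RPKM of the 4 ID genes, Id3 made up the larger part in every library but 1. Its share was 54.0% to 70.8% in 11 libraries and 34.7% in replicate 1 of Kmt2a+/+. Id2 supplied 10.8% to 23.1% in the other 11 libraries and 29.9% in that library, and Id4 3.93% to 12.3% and 24.0%. The share of Id1 was nearly constant, at 10.2% to 14.5% in the 11 libraries and 11.4% in replicate 1 of Kmt2a+/+.

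**Figure D2:**
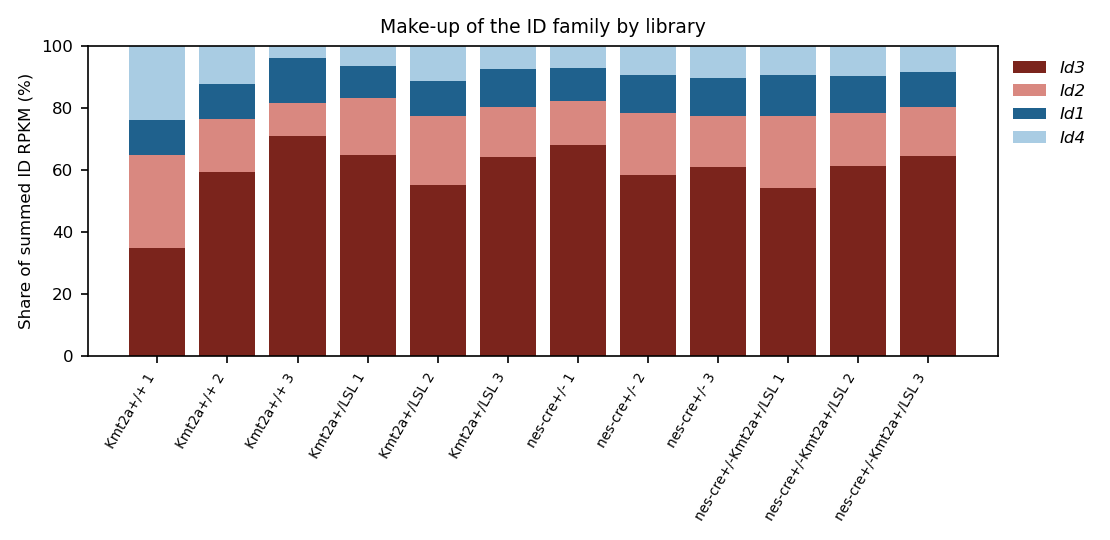
Share of each ID gene in the summed RPKM of the 4 ID genes, in percent, with 1 stacked bar per library. Id3 fills 54.0% to 70.8% of 11 bars and 34.7% of the bar for replicate 1 of Kmt2a+/+, where Id2 and Id4 take more.

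Promoter windows of RefSeq (build GRCm38.p6), each of 300 bases with 250 before and 50 after a transcript start, were at hand for 7 of the 10 genes, as 9 windows. Id1, Bmp7 and Smad7 had no entry. The letters GGCGCC, a GC-rich element known to be bound by BMP-regulated SMADs and the same on both strands, stood in 11.9% of all 32851 windows and once each in the windows of Id2, Id4 and Bmpr1a. The short SMAD-binding letters CAGAC, read as CAGAC or GTCTG, stood in 49.6% of all windows, in the window of Id3 at 2 places and in 2 of the 3 windows of Bmpr1b. The windows of Bmp4 and Smad6 held neither set of letters. Printed here are the bases of these windows that lie before the start and outside annotated exons, for Id2 (chr12:25096254-25096342, minus strand) and Id4 (chr13:48260866-48261115, plus strand), since this pair of ID genes moved together across libraries both before and after GC trends were removed. For Id4 these are all 250 bases before the start. For Id2 they are the 89 bases of the window farthest from its RefSeq start, which lie inside the annotated Id2 gene, and the bases nearer to that start fall in annotated exons and are not shown. Both are written 5′ to 3′ with the GGCGCC in capitals, as a description and not as a site.
Id2: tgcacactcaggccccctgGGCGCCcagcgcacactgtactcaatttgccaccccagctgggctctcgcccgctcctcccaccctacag
Id4: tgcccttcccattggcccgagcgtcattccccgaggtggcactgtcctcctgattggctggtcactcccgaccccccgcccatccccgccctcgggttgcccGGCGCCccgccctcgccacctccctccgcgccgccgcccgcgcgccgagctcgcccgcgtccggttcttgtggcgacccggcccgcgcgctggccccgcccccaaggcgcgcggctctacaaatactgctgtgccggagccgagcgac

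Variation between libraries was larger than variation between genotypes, and part of it moved with GC content. In replicate 1 of Kmt2a+/+, the 2164 genes of highest GC content (55.5% or more) had a median level 1.68 lower on the log2 scale than in the median library, and the 2164 of lowest GC content (44.5% or less) a median 0.81 higher. Replicate 1 of nes-cre+/-Kmt2a+/LSL leaned the same way, with medians of -0.39 and 0.33, and replicate 3 of Kmt2a+/+ the opposite way, with 0.34 and -0.41. Of the 10 genes, 6 had a transcript GC content above 50%. In replicate 1 of Kmt2a+/+, Id3 (56.2% GC) and Smad7 (58.6%) each lay at -1.93 relative to the median of the other 11 libraries on the log2 scale. Id1 (55.0% GC) lay at -1.12 and Bmp7 (56.0%) at -0.72, while Bmpr1a (43.2%) lay at 0.68, Id4 (42.6%) at 0.36 and Bmpr1b (45.1%) at 0.26. Id2, although GC-poor (45.9%), lay at -0.18, and the low-count genes Smad6 and Bmp4 lay at -0.99 and -0.98. In that library Id1, Id3, Bmp7 and Smad7 were below all 11 others and Bmpr1a and Bmpr1b above all 11. Being outside the other libraries was the common case there, since 78.3% of the 10866 genes with a mean count of at least 100 were.

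When each library's trend on GC content was removed, the log2 range of Id3 over the 12 libraries went from 2.27 to 0.72 and that of Bmpr1a from 1.17 to 0.29. The range of Id1 went from 1.58 to 0.73 and that of Bmp7 from 1.33 to 0.84. Id4 kept a range of 1.61 against 1.67 before, Id2 had 1.17 against 0.99, and Bmpr1b 0.68 against 0.65. Replicate 1 of Kmt2a+/+ then lay at -0.03 for Id1 and 0.04 for Bmpr1a relative to the other 11, and still at -0.66 for Id3. It lay at -0.63 for Id2, -0.47 for Id4 and 0.45 for Bmp7, and for Smad6 it went from -0.99 to 1.19. The within-genotype SD of log2 CPM was 0.66 for Id3 with all libraries and 0.22 without replicate 1 of Kmt2a+/+, whereas that of Id4 was 0.59 and 0.61. The median gene had 0.36 and 0.20.

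**Figure D3:**
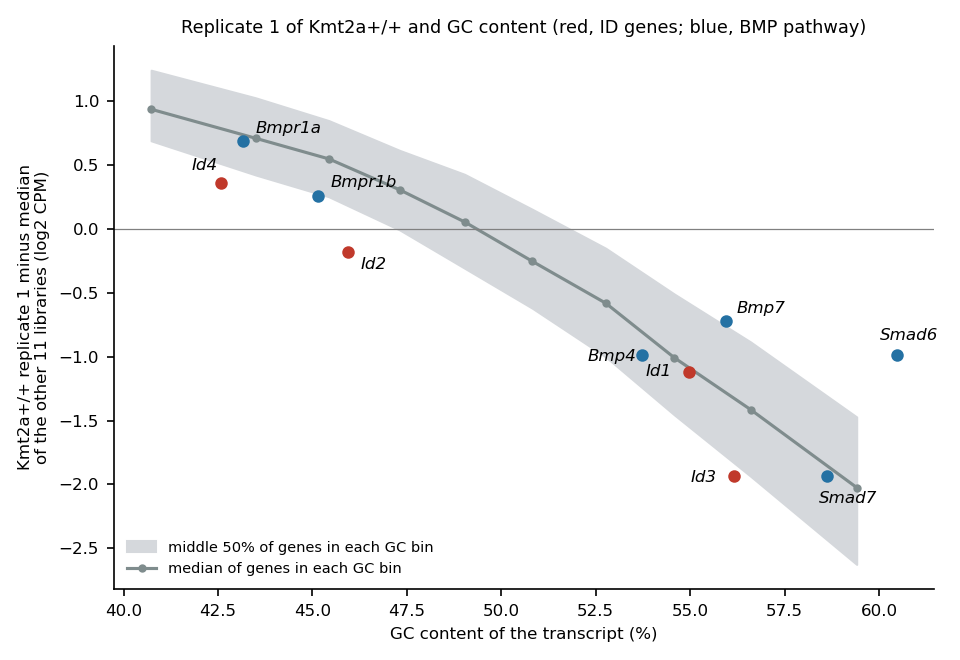
Difference in log2 CPM between replicate 1 of Kmt2a+/+ and the median of the other 11 libraries, against the GC content of the transcript in percent (grey line and band, median and middle 50% of genes per bin; red, ID genes; blue, BMP pathway genes). Id1, Id3, Smad7 and Bmp7 lie among the GC-rich genes below 0, and Bmpr1a, Bmpr1b and Id4 among the GC-poor genes above 0.

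Across the 12 libraries, the 10 genes form 45 pairs, for which correlations of log2 CPM are given as descriptions over libraries that share their depth and base composition. Id1 and Id3 moved together (Pearson's r = 0.90, Spearman's rho = 0.89, 12 libraries), with r = 0.75 without replicate 1 of Kmt2a+/+ and r = 0.41 once the GC trends were removed. Id2 and Id4 also moved together, with r = 0.72 and rho = 0.70, and here r was 0.83 without that library and 0.75 with the GC trends removed. Id1 and Id4, by contrast, had r = -0.04, and Id2 and Id3 had r = 0.18. As measured, the GC-rich Id1 and Id3 thus ran together, as did the GC-poor Id2 and Id4. With the GC trends removed, Id2 and Id3 had r = 0.65, Id1 and Id4 0.53, Id1 and Id2 0.52 and Id3 and Id4 0.46. Without replicate 1 of Kmt2a+/+ as well, these 4 pairs had r = 0.37, 0.53, 0.59 and 0.49, Id1 and Id3 had 0.54 and Id2 and Id4 had 0.81. The GC-rich pair thus did not stand apart from the mixed pairs in that case, while Id2 and Id4 had the highest r of the 6 pairs with and without the library. Bmpr1b moved with Id4 (r = 0.81, rho = 0.83), with r = 0.80 without replicate 1 of Kmt2a+/+ and 0.80 after removal of the GC trends. Bmpr1a and Bmpr1b had r = 0.69, and 0.81 with the trends removed. Bmp7 ran against its receptor gene Bmpr1a, with r = -0.88 and rho = -0.78, and with r = -0.80 without the library and -0.74 with the trends removed. Id3 and Bmpr1a had r = -0.85 as measured and 0.19 with the trends removed, so the sign of that pair turned.

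**Figure D4:**
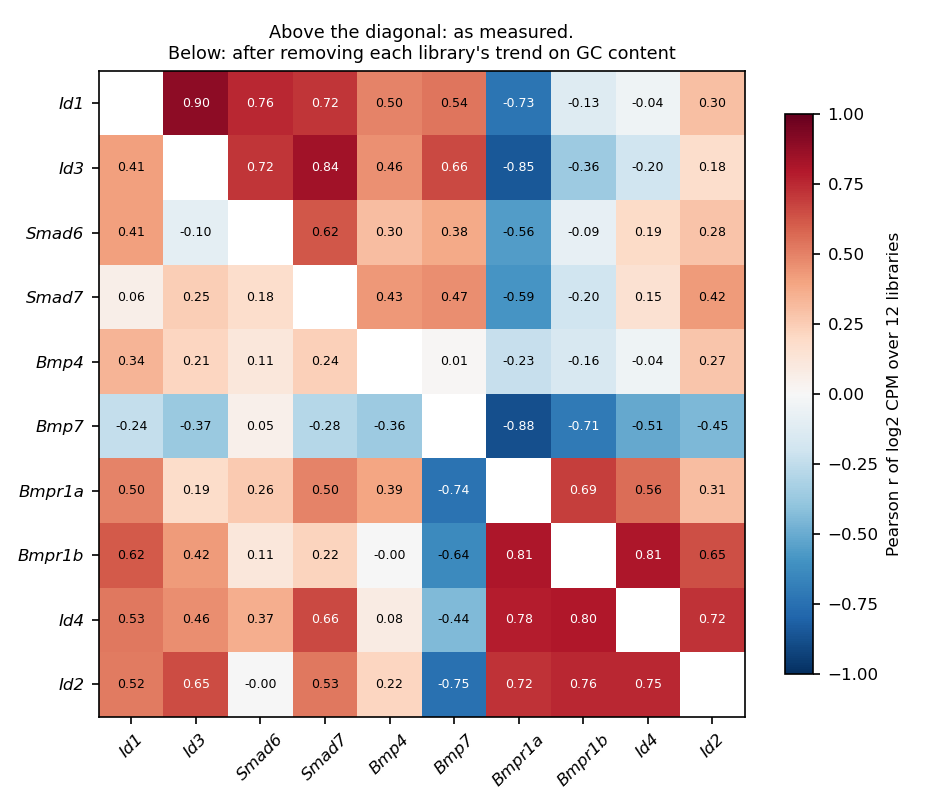
Pearson's r of log2 CPM over the 12 libraries for each pair of the 10 genes, as measured above the diagonal and with each library's GC trend removed below it. Id2 and Id4 (0.72 and 0.75), Id4 and Bmpr1b (0.81 and 0.80) and Bmp7 and Bmpr1a (-0.88 and -0.74) keep similar values on both sides, while Id1 and Id3 go from 0.90 to 0.41.

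Among 10865 genes with a mean count of at least 100, the genes whose profile over the 12 libraries was most like that of Id3 were Igsf8, Src and Erbb2 (r = 0.99 each), all with a GC content of 57.7% to 59.7%. The nearest to Id4 were Cyp4v3 (r = 0.95), Rragd (0.94) and Bdnf (0.94), with a GC content of 40.5% to 45.8%. Id1 had Abca3 and Myo7a among its nearest at r = 0.94, and Id2 had Car5b and Slc30a9 at r = 0.90 and Fam120c at r = 0.87. Id3 was in place 155 among the genes ranked by likeness to Id1, Id4 in place 84 among those for Id2, and Bmpr1b in place 67 among those for Id4. These places were 238, 36 and 184 without replicate 1 of Kmt2a+/+. Among the genes ranked by likeness to Id3, Id1 was in place 2230, and in place 1271 without that library. Many genes were thus as near to each ID gene as its own relatives were.

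The first comparison, Kmt2a+/LSL against Kmt2a+/+, asks what the STOP cassette changes in these cells. None of the 10 genes was called by edgeR's quasi-likelihood test with Benjamini-Hochberg adjustment, with an adjusted p of 1 for each, and all of them overlapped between the genotypes. That is 0 of 10 against 0% of 17076 genes at an adjusted p under 0.05, 0 of 10 against 1.79% (306 genes) at an unadjusted p under 0.05, and 0 of 10 against 4.05% of genes whose libraries did not overlap. With no gene called, the test also missed Kmt2a itself, at 166 to 167 against 281 to 300.4 CPM. The absence of a call thus says little about any single gene. DESeq2 called 7 genes of the whole table and none of the 10. Id3 averaged 136 ± 9.84 CPM in Kmt2a+/LSL and 129 ± 79.0 CPM in Kmt2a+/+ (SD, n = 3 each), a log2 fold change of 0.08 (SE 0.42, 95% interval -0.86 to 1.01). Id1 differed by -0.11 (SE 0.34, interval -0.86 to 0.64), Id2 by 0.26 (SE 0.26, -0.31 to 0.82) and Id4 by -0.26 (SE 0.41, -1.17 to 0.64). As a fold, the interval of Id3 ran from 0.553 to 2.01, so the test does not show that the genotypes were alike.

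The other BMP genes in this comparison lay close to 0 or were imprecise. Bmpr1a differed by -0.14 (SE 0.26, 95% interval -0.71 to 0.42) and Bmpr1b, the most precise of the 10, by -0.06 (SE 0.22, -0.54 to 0.43). Bmp7 differed by -0.15 (SE 0.32, -0.84 to 0.54), and Smad7, with 0.08 (SE 0.55), and Smad6, with -0.18 (SE 0.58), had intervals more than 2 log2 units wide. Of the 10 genes 3 had a log2 fold change above 0, against 50.1% of all genes, with a median of -0.13 against 0.00 for all genes. Without replicate 1 of Kmt2a+/+ the direction turned for Id3 (-0.36), Smad7 (-0.36), Bmpr1a (0.22) and Bmpr1b (0.05). In the same fit Id1 had -0.45, Bmp7 -0.42, Smad6 -0.49, Bmp4 -1.07 (-0.68 with the library), Id2 0.21 and Id4 -0.15. An edgeR fit of all 12 libraries with a GC offset gave Id3 a difference of 0.04 with an SE of 0.17 in place of 0.42, Bmpr1a -0.02 with an SE of 0.10 in place of 0.26, and Bmp7 -0.36 with an SE of 0.20 in place of 0.32. With replicate 1 of both Kmt2a+/+ and nes-cre+/-Kmt2a+/LSL left out, Id3 had an unadjusted p of 0.00883 in the same edgeR test and an adjusted p of 0.242, and its adjusted p over all alternatives ranged from 0.242 to 1.

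Removal of the cassette was addressed by nes-cre+/-Kmt2a+/LSL against Kmt2a+/LSL. Again none of the 10 genes was called, with adjusted p = 1 for each by edgeR's quasi-likelihood test, and none separated the libraries of the 2 genotypes. The background was 0% of genes at an adjusted p under 0.05, 1.61% (275 genes) at an unadjusted p under 0.05 and 7.1% with libraries that did not overlap, and DESeq2 called 7 genes, none of them among the 10. Bmp7 had the largest difference, with 156 ± 35.6 CPM in nes-cre+/-Kmt2a+/LSL and 113 ± 21.0 CPM in Kmt2a+/LSL (n = 3 each, mean ± SD). The log2 fold change of Bmp7 was 0.46 (SE 0.32, 95% interval -0.23 to 1.16), or a fold of between 0.853 and 2.23, with an unadjusted p of 0.169. An exact permutation test of its log2 CPM gave a two-sided p of 0.2, where 3 libraries against 3 cannot go below 0.1. For Bmp7, limma-voom gave an unadjusted p of 0.0215, edgeR with a GC offset 0.0263, and DESeq2 with an empirical null an adjusted p of 0.0571, the lowest of a range of 0.0571 to 1 over the alternatives. The number of all genes with an unadjusted p under 0.05 ran from 121 to 2769 over the fits of this comparison.

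For the ID genes this second comparison gave small differences. Id1 differed by -0.02 (SE 0.34, 95% interval -0.77 to 0.73), Id2 by -0.17 (SE 0.26, -0.74 to 0.39), Id3 by -0.10 (SE 0.42, -1.03 to 0.83) and Id4 by 0.01 (SE 0.41, -0.90 to 0.91). Bmpr1a, at -0.01 (SE 0.26, -0.57 to 0.56), and Bmpr1b, at -0.14 (SE 0.22, -0.62 to 0.35), had comparatively narrow intervals, which for Bmpr1a ran from 0.671-fold to 1.47-fold. Smad7 had 0.34 (SE 0.55) and Smad6 0.05 (SE 0.58). The 10 genes had 5 log2 fold changes above 0, against 50.4% of all genes.

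**Figure D5:**
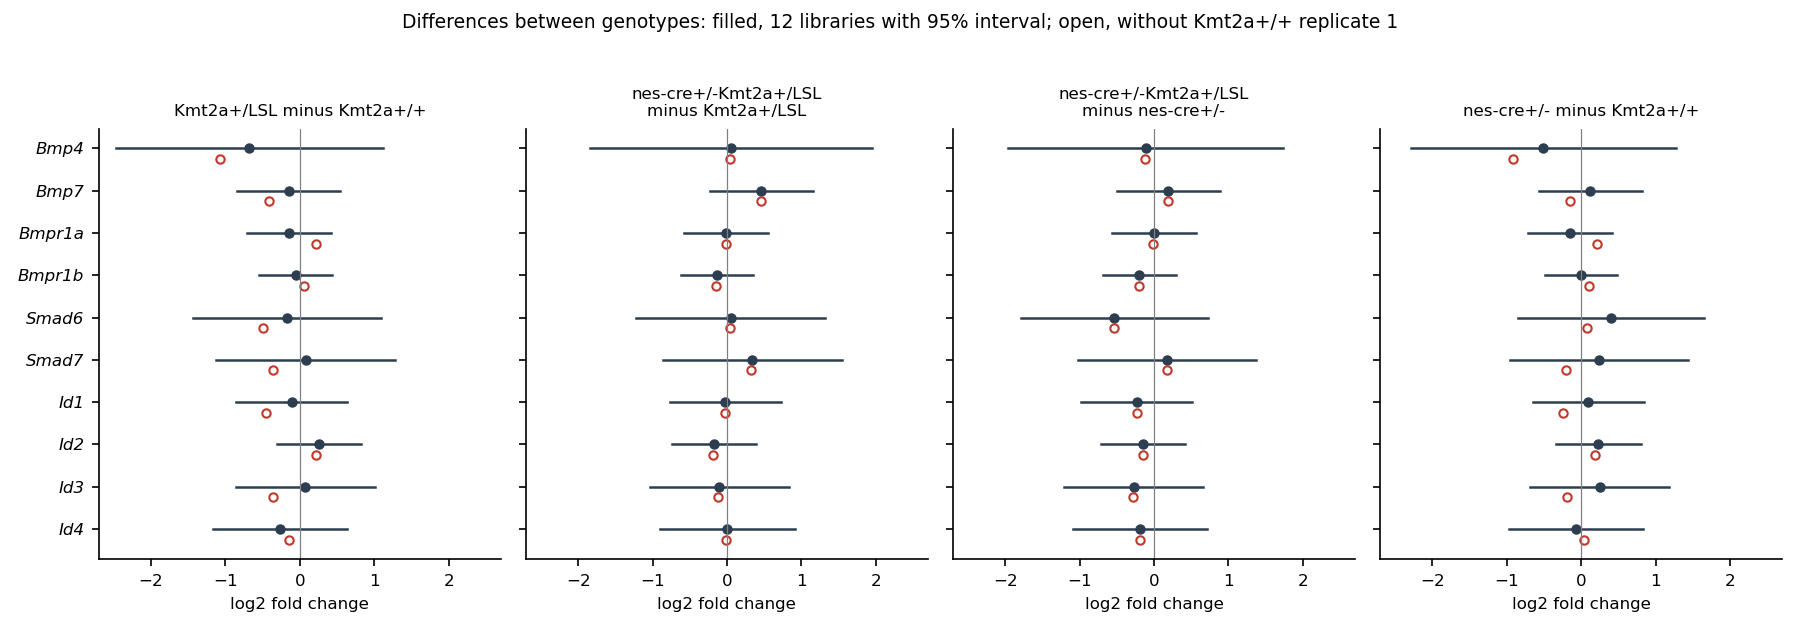
Log2 fold change of the 10 genes in 4 comparisons between genotypes, with 95% interval from the edgeR fit of 12 libraries (filled), and the value without replicate 1 of Kmt2a+/+ (open). Each interval spans 0, and Bmp7 in nes-cre+/-Kmt2a+/LSL against Kmt2a+/LSL, at 0.46, lies highest in that comparison.

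A further contrast, nes-cre+/-Kmt2a+/LSL minus nes-cre+/-, asks whether cells with a recombined allele match cells with 2 intact alleles under the same transgene. No member of the set was called (adjusted p = 1 each, edgeR) or free of overlap, beside 0% of all genes at an adjusted p under 0.05, 1.11% (190 genes) at an unadjusted p under 0.05 and 6.69% without overlap, and DESeq2 called 3 genes outside the set. Id3 measured 126 ± 31.7 CPM against 153 ± 4.36 CPM (SD, n = 3 each), a log2 fold change of -0.27 (SE 0.42, 95% interval -1.21 to 0.66). Smad6 had the largest difference, -0.53 (SE 0.57, -1.79 to 0.73), on 5 to 34 counts per library. Leaving out 1 library at a time gave Smad6 -0.94 to -0.14. Without replicate 1 of both Kmt2a+/+ and nes-cre+/-Kmt2a+/LSL it had -0.16, where Bmp4 had -0.36 and Bmp7 0.35. Bmpr1a was at 0.00 (-0.57 to 0.56) and Bmp7 at 0.19 (SE 0.32, -0.50 to 0.88). Above 0 were 2 of the 10 genes, against 50.9% of all genes, with a median of -0.17 against 0.00.

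The transgene alone was addressed by nes-cre+/- against Kmt2a+/+. Here too 0 of 10 genes were called (adjusted p = 1 each, edgeR) and 0 of 10 were free of overlap, beside 0%, 1.4% (239 genes at an unadjusted p under 0.05) and 4.35% of all genes, and DESeq2 called 3 genes, none of the 10. Id3 differed by 0.25 (SE 0.42, 95% interval -0.68 to 1.18) and by -0.19 without replicate 1 of Kmt2a+/+. Smad6 differed by 0.40 (SE 0.57, -0.85 to 1.66) and by 0.08 without that library. Of the 10 genes 7 lay above 0 against 52% of all genes, and without replicate 1 of Kmt2a+/+ Id1, Id3, Bmp7 and Smad7 turned below 0, at -0.25, -0.19, -0.15 and -0.20, and Id4 and Bmpr1a above 0, at 0.03 and 0.21. Id2 went from 0.23 to 0.18, Bmpr1b from 0.00 to 0.10 and Bmp4 from -0.51 to -0.92.

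Whether the effect of the cassette differed with and without nestin-Cre was tested as an interaction. No gene of the 10 was called (adjusted p = 1.00, edgeR), beside 0% of all genes and 1.73% (295 genes) at an unadjusted p under 0.05, and the estimates ran from -0.40 for Id2 to 0.56 for Bmp4, with 5 of 10 above 0 against 49.8% of all genes. Without replicate 1 of Kmt2a+/+ the estimate of Id3 went from -0.35 to 0.07, Id1 from -0.12 to 0.22, Id4 from 0.08 to -0.04 and Bmpr1a from 0.14 to -0.23, each with a change of sign. The other estimates were then -0.36 for Id2, 0.95 for Bmp4, 0.60 for Bmp7, -0.25 for Bmpr1b, -0.04 for Smad6 and 0.53 for Smad7. A test of any difference among the 4 genotypes likewise called 0 of 10, beside 0% of all genes and 1.15% (197 genes) at an unadjusted p under 0.05. DESeq2 called 10 and 5 genes in these 2 tests and none of the 10 genes. Genotype accounted for between 1.52% of the variance of log2 CPM over the 12 libraries (Bmpr1a, exact permutation p = 0.980) and 20.7% (Bmp7, exact permutation p = 0.576). These 4 comparisons share their libraries, so their estimates are not independent of each other.

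A wider list of 82 BMP and TGF-beta pathway genes and helix-loop-helix partners of ID proteins placed the 10 genes in context, and 77 of these were in the table and 76 were tested. Gdf5, Gdf7, Acvrl1 and Dlx5 were among those not analysed here. None of the 76 was called in any comparison by edgeR (adjusted p = 1 in each of the 4 pairwise comparisons). An unadjusted p under 0.05 was met once in the comparison of Kmt2a+/LSL with Kmt2a+/+, by the homeobox gene Dlx6, with 3 to 6 counts against 8 to 15 (log2 fold change -1.38, SE 0.61, unadjusted p = 0.0439), which is 1.32% of the 76 beside the 1.79% of all genes. Without replicate 1 of Kmt2a+/+ Dlx6 had a log2 fold change of -0.73 and an unadjusted p of 0.250 by edgeR.

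The route from receptor to nucleus was present at the RNA level. Bmpr2, the main type II receptor, had a median of 19.0 RPKM, the type I receptor gene Acvr1 6.03, and the co-receptor gene Rgma 76.6 RPKM. Of the signal-carrying SMADs, Smad5 had 38.3 RPKM, Smad1 9.55 and Smad9 0.752, and the shared partner Smad4 had 31.8. Only 1 of 8 other ligand genes exceeded 1 RPKM, Gdf11, at 9.53 RPKM, so Bmp7 had the highest median RPKM of the 10 listed Bmp and Gdf ligand genes in the table. Of 15 extracellular antagonists and modulators 9 exceeded 1 RPKM, among them Twsg1 (27.1), Nbl1 (21.5) and Bmper (18.4), while the antagonist gene Nog had 1.54 and Fst and Chrdl2 had a median of 0.

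Among other BMP targets 5 of 10 exceeded 1 RPKM, with Hes5 at 71.1, Hey1 at 19.6 and Hes1 at 18.4, all of which are also Notch targets. Of 8 helix-loop-helix partners of ID proteins 7 exceeded 1 RPKM, with the E protein genes Tcf3 at 42.1, Tcf12 at 29.3 and Tcf4 at 28.6 RPKM, and the oligodendrocyte lineage genes Olig1 and Olig2 stood at 1435 and 342 RPKM. The proneural genes Neurog2 and Neurod1 were low, at 2.52 and 0.0612 RPKM. Bmpr2 stood at 342 ± 39.7 CPM in Kmt2a+/LSL and 460 ± 308 CPM in Kmt2a+/+ (SD, n = 3 each), which differed by -0.43 on the log2 scale (SE 0.37, edgeR, adjusted p = 1). That direction turned without replicate 1 of Kmt2a+/+, to 0.28, where the library itself had 814 CPM against 249 to 524 in the other 11. Acvr1 differed by -0.22 (SE 0.16), and by -0.25 without the library. In nes-cre+/-Kmt2a+/LSL against Kmt2a+/LSL the SMAD co-activator gene Crebbp differed by 0.41 (SE 0.23, unadjusted p = 0.101, and 0.00486 without replicate 1 of Kmt2a+/+, where the adjusted p was 1), and in nes-cre+/-Kmt2a+/LSL against nes-cre+/- the signal-carrying Smad1 differed by -0.24 (SE 0.14, unadjusted p = 0.119, and 0.0468 without that library, with an adjusted p of 1). None of these differences passed the test.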

How the data were processed

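The authors quantified transcripts of 12 poly(A) libraries with kallisto 0.48.0 against mm10/GRCm38, summed them to genes with tximport and deposited estimated counts per gene, which were whole numbers in the table used here. Ensembl identifiers were matched to symbols, positions, exon lengths and GC content of GENCODE M21 (18718 of 18911 genes). Genes with more than 10 counts in all and counts in at least 2 libraries (17076) entered edgeR 4.0.16 in R 4.3.3, with TMM scaling, genotype as the only term, all 12 libraries in the fit, the quasi-likelihood test and Benjamini-Hochberg adjustment over all tested genes at 0.05. CPM were TMM-scaled, RPKM used the merged exon length, and log2 CPM a prior count of 2. Intervals are at the 95% level. Exact permutation tests were two-sided. The 10 genes were named in full, and other pathway genes were named from those with a mean count of at least 50 and the 2 lowest p-values per list. Some items that these rules name are not reported here. DESeq2 1.42.0, DESeq2 with an empirical null, limma 3.58.1 voom, a replicate block, other filters and each library left out were alternatives, and a GC offset (loess span 0.5) and the removal of 2 libraries were added after seeing the data. Between 0% and 4.08% of the 31-base words of the 10 genes also occur in another gene, so kallisto could split few of their reads. Depth is given as library totals, and limits of 3 counts cover counting error only. The genes and lists were chosen with earlier results of these data known.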

Additional observations from a re-analysis of the deposited data

How the results depend on the processing

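None of the 10 BMP and ID genes was called under any of 27 alternatives, and the lowest adjusted p was 0.0571 (Bmp7, DESeq2 with an empirical null). Of 1150 recomputed log2 fold changes, 1138 lay within 1 within-genotype SD of the reported value and 12 moved further, by at most 0.82, while 139 changed sign, none of them a called value. That SD came from all 12 libraries and is a wide limit, for Id3 0.66 against 0.22 without replicate 1 of Kmt2a+/+. Leaving out a library outside a comparison could also hardly move its estimate. The count of 1138 is therefore not a measure of how stable the values were. Without replicate 1 of Kmt2a+/+, 15 of 50 values changed sign. Without replicate 2 of Kmt2a+/+, Smad7 went to 0.90 in Kmt2a+/LSL and to 1.06 in nes-cre+/-, each against Kmt2a+/+. Bmp4 and Smad6 had at most 9 and 34 counts in a library, which limits their precision, and the causes of these shifts were not tested.

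The number of all genes called, 0 in each edgeR test, depended on the method. In the order Kmt2a+/LSL against Kmt2a+/+, nes-cre+/-Kmt2a+/LSL against Kmt2a+/LSL, nes-cre+/-Kmt2a+/LSL against nes-cre+/-, nes-cre+/- against Kmt2a+/+ and the interaction, DESeq2 called 7, 7, 3, 3 and 10 genes and DESeq2 with an empirical null 32, 945, 261, 7 and 17. The test of any difference gave 5 with DESeq2, 2 with limma-voom, 1 with the GC offset and 3 without both replicates 1 of Kmt2a+/+ and nes-cre+/-Kmt2a+/LSL. In the first 2 comparisons limma-voom called 2 and 2, the GC offset 2 and 1, and the fit without both libraries 2 and 1, with 1 for nes-cre+/- against Kmt2a+/+. Leaving out 1 library at a time gave 0 to 2 calls in the first comparison, 0 to 1 in the second, 0 to 3 for any difference and 0 in the others, all of the calls above 0 coming without replicate 1 of Kmt2a+/+.

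With the replicate number as a block, 0 genes were called in each comparison, and Id3 had a log2 fold change of 0.23 in Kmt2a+/LSL against Kmt2a+/+. Deviations of libraries with the same number correlated at a mean of 0.08 (-0.07 to 0.42, 18 pairs) and those with different numbers at -0.04 (36 pairs), and 8 of 12 libraries correlated best with their own number, a hint from the data and not from the design. The labels tie the numbers to nothing shared, so the numbers were not treated as pairing the libraries in the main fit. Whether libraries with the same number shared a batch was not tested.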
